A study of Homo sapiens with 72 samples.

Results

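The genes described here are 10 kinesins of mitosis, KIF20A, KIF23, KIF4A, KIF14, KIF11, KIF15, KIFC1, KIF2C, KIF18A and KIF18B, taken by name from 20131 genes tested in poly(A) RNA sequencing of PEO1 cells. All 10 passed the filter on low counts. PEO1 is an established line of high-grade serous ovarian cancer, and rucaparib is a fluorescent inhibitor of PARP enzymes, so that drug in single cells can be read by flow cytometry. Cells received 8.5 µM rucaparib for 2 or 24 h. Those with the top 20% of drug fluorescence were sorted as RucHigh and those with the bottom 20% as RucLow, unsorted treated cells were RucTotal, and unsorted cells given DMSO were Vehicle, with 3 replicates of 3 libraries in each of the 8 groups. Sorted cells were detached, kept on ice and sorted, whereas unsorted cells were scraped directly into lysis buffer, and no sorted Vehicle cells were among the samples used here. All groups come from 1 cell line.

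Kinesins are motors that walk along microtubules or shorten their ends by hydrolysing ATP, and a subset of the family builds and dismantles the mitotic spindle. Most of that subset is transcribed late in the cell cycle, when the MuvB protein core, together with B-MYB and FOXM1, activates promoters that the DREAM complex silences earlier in the cycle and after p53 induces the CDK inhibitor p21. A promoter element called CHR, often spelled TTTGAA, recruits MuvB, and a CCAAT box, the site of NF-Y, is commonly found a short distance before it. A lower level of such transcripts in lysates of many cells can come from fewer cells in G2 and mitosis or from less RNA in each of them, and the libraries cannot tell these apart.

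The promoters show which members carry such letters. All 10 promoters were found in RefSeq (GRCh38.p14) and searched on both strands over the 250 bases before the annotated start for TTTGAA, for TTTAAA as a related spelling, and for CCAAT. A promoter with both TTT spellings counts once under either, and TTTAAA is its own reverse complement. Either TTT motif was found in 7 of the 10 members and in 21.9% of 35116 promoters, and CCAAT in 8 of the 10 members and in 32.01% of promoters. Both were found in 6 of the 10 and in 7.64% of promoters. Within the nearest 100 bases, the shares were 8.24% of promoters for either TTT motif, with 6 members, and 18.1% for CCAAT, with 8 members. The windows of 100 bases below are the 6 members with a TTT motif in that span, and KIF18B, whose levels across samples followed the others least. They are written 5′ to 3′ on the strand of the gene with the motifs in capitals, where ATTGG is CCAAT and TTCAAA is TTTGAA on the other strand.

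KIF20A, chr5:138179012-138179111, plus strand: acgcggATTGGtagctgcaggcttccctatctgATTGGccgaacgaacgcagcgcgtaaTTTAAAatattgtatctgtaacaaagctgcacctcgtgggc
KIF11, chr10:92593030-92593129, plus strand: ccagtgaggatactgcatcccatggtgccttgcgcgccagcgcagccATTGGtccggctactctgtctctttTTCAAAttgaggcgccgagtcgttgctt
KIF23, chr15:69414249-69414348, plus strand: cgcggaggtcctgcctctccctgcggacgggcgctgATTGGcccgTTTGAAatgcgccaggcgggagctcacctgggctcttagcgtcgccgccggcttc
KIF4A, chrX:70290004-70290103, plus strand: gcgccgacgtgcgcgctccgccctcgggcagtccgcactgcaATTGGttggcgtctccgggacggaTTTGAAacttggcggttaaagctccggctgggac
KIF15, chr3:44761694-44761793, plus strand: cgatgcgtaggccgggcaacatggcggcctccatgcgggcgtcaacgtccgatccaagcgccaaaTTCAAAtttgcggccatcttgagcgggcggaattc
KIF18A, chr11:28108157-28108256, minus strand: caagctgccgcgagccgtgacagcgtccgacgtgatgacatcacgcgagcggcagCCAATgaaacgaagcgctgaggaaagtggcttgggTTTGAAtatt
KIF18B, chr17:44947774-44947873, minus strand: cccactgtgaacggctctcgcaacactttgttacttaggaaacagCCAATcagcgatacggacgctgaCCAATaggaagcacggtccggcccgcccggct

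In KIF20A the nearer CCAAT box and the TTT motif lay 21 bases apart, and the gap was 20 bases in KIF11 and 19 bases in KIF4A. KIF18A had 30 bases between them and KIF23 had 4. KIF15 had a TTT motif and no CCAAT in this window, and KIF18B had 2 CCAAT boxes and no TTT motif. The other members are KIF2C (chr1:44739818-44767767, GRCh38), KIF14 (chr1:200551497-200620734) and KIFC1 (chr6:33391536-33409924), without a TTT motif in that span. Their levels correlated with the mean of the other members at r = 0.92, 0.96 and 0.88, against -0.06 for KIF18B. A link between motifs and levels was not tested. A match is a description of letters, and no binding was measured.

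Every member was counted in every library. Library totals were 17391033 to 38899905 estimated reads, and the lowest estimate of any member in any library was 128 reads, for KIF15. The mean length of the transcripts that reads were assigned to ranged from 2255 to 3299 bases per library and was under 2800 bases in 18 of 72. At 24 h it was 2746, 2711 and 3229 bases in the RucTotal replicates, against 3120, 3107 and 3231 bases in the Vehicle replicates. In 2 libraries, of RucLow at 2 h in replicate 2 and Vehicle at 2 h in replicate 1, over 25000 genes were detected. All 8 serous epithelial markers were detected, with PAX8 at 33.7 to 87.4 TPM (the transcript level scaled for length and depth) and EPCAM at 243 to 395 TPM, whereas of 8 markers of immune, endothelial and stromal cells only CD68, VWF and ACTA2 passed the filter, and CD3E, PTPRC, PECAM1, COL3A1 and DCN reached at most 0.613 TPM. The summed level of those 8 was 8.36 to 15.4 TPM in RucTotal and 11.3 to 13.7 TPM in Vehicle at 24 h. ACTA2, a smooth muscle actin gene, averaged 1.35 CPM (counts scaled to library depth) in RucTotal and 0.462 CPM in Vehicle there and was called higher (log2 fold change 1.54, edgeR quasi-likelihood test with Benjamini-Hochberg adjustment, adjusted p = 0.00559).

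Per transcript length, the members ranged over more than an order of magnitude in Vehicle cells at 24 h. KIF2C, KIF23 and KIF20A were the most abundant, at 79.9 ± 11.3, 73.5 ± 13.3 and 62.04 ± 15.2 TPM (SD, n = 3), and their ranges over replicates overlapped. A gap separated them from KIF4A at 40.5 ± 4.37 TPM, KIF18A at 28.4 ± 6.89, KIF11 at 26.2 ± 2.82 and KIFC1 at 24.1 ± 1.56, in which neighbours overlapped. KIF14 at 12.6 ± 3.41 and KIF15 at 12.3 ± 0.879 TPM overlapped each other below a second gap, and KIF18B was lowest at 6.33 ± 1.14 TPM. In RucTotal cells at 24 h the order opened with KIF23 at 50.2 ± 20.7 and KIF2C at 46.5 ± 14.3 TPM, and KIF20A stood 7th, at 16.8 ± 9.26 TPM. The summed level of the 10 genes was 217 ± 75.5 TPM in RucTotal cells and 366 ± 54.7 TPM in Vehicle cells at 24 h.

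The first question was how unsorted cells responded to the drug. After 24 h of rucaparib, KIF20A, KIF14 and KIF11 fell, and the other 7 members had estimates below 0 without passing the test. Each call is from edgeR's quasi-likelihood test on counts summed over the libraries of a replicate, with 0.05 as the limit of the adjusted p. The 3 of 10 called lower stand beside 1.15% of all genes tested, and the median log2 fold change of the members was -0.58, against 0.028 over all genes. With the replicate number as a block in the model, which the pairing of the replicates allows, 9 of 10 were called lower, beside 10.8% of all genes, and KIFC1 was the exception. All 10 were lower in each of the 3 replicates taken alone, as were 25.5% of all genes, and the member medians were -0.71, -0.54 and -0.39. In replicate 3, where mean transcript lengths were 3229 and 3231 bases, KIF20A differed by -1.70, KIF14 by -0.80 and KIF11 by -0.38. Of the 3 replicates, the difference in replicate 3 was the smallest for 7 of the 10 members, KIF20A, KIF14, KIF11, KIF18A, KIF23, KIF15 and KIF4A.

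Among the motors of the central spindle and of cytokinesis, KIF20A (MKLP2), which carries the chromosomal passenger complex to the anaphase midzone, was at 22.7, 29.6 and 50.2 CPM in RucTotal cells, against 106.5, 124.8 and 163.9 CPM in Vehicle cells at 24 h. The highest treated replicate was below the lowest Vehicle replicate. Its log2 fold change was -1.95 ± 0.372 (SE, edgeR adjusted p = 0.00940). KIF14, a midbody kinesin that binds PRC1 and citron kinase, was at 16.8, 18.02 and 31.8 CPM in RucTotal cells, against 49.03, 45.6 and 55.95 CPM in Vehicle cells, again with no overlap. Its change was -1.18 ± 0.253 on the log2 scale (edgeR adjusted p = 0.0185). KIF23 (MKLP1), the motor subunit of centralspindlin, was at 76.4, 83.6 and 118.8 CPM in RucTotal cells, against 154.7, 123.6 and 148.8 CPM in Vehicle cells, with replicate 3 of RucTotal close to the lowest Vehicle value. The estimate was -0.62 ± 0.210, with an edgeR adjusted p of 0.0960 and, with the replicate block, 0.00399. KIF4A, a chromokinesin that limits midzone overlap with PRC1, was at 82.6, 81.6 and 86.3 CPM in RucTotal cells, against 106.5, 98.5 and 102.5 CPM in Vehicle cells. These groups were tight and apart, and the estimate was small, -0.30 ± 0.108 (edgeR adjusted p = 0.114, with the block 0.0473).

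Among the motors that set spindle bipolarity, KIF11 (Eg5), the tetramer that pushes the poles apart, was at 59.3, 49.2 and 59.1 CPM in RucTotal cells, against 89.2, 79.8 and 76.9 CPM in Vehicle cells at 24 h. The groups did not overlap, and KIF11 fell by 0.55 on the log2 scale (SE 0.124, edgeR adjusted p = 0.0212). KIF15, which can keep a spindle bipolar beside KIF11, was at 16.4, 17.9 and 21.97 CPM in RucTotal cells, against 26.4, 26.1 and 26.8 CPM in Vehicle cells. The Vehicle values were nearly equal and all higher, and the estimate was -0.49 ± 0.195 (edgeR adjusted p = 0.135, with the block 0.0132). KIFC1 (HSET), a minus-end directed kinesin-14 that gathers spindle poles and extra centrosomes, was at 46.2, 49.4 and 53.1 CPM in RucTotal cells, against 58.2, 53.8 and 62.03 CPM in Vehicle cells. Its groups lay next to each other without overlap, and its estimate of -0.23 ± 0.186 passed neither fit (edgeR adjusted p = 0.462, with the block 0.191).

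The remaining members act on microtubule ends. KIF2C (MCAK), a depolymerase that helps correct faulty kinetochore attachments, was at 96.9, 114.1 and 113.8 CPM in RucTotal cells, against 162.5, 156.0 and 174.7 CPM in Vehicle cells at 24 h. The gap was wide relative to the spread of either group, yet the estimate of -0.60 ± 0.183 stood at an edgeR adjusted p of 0.0703, or 0.00595 with the block. KIF18A, a kinesin-8 that dampens chromosome movements at metaphase, was at 21.5, 27.3 and 41.01 CPM in RucTotal cells, against 48.7, 48.6 and 54.3 CPM in Vehicle cells. The treated replicates were spread and all lower, with an estimate of -0.76 ± 0.230 (edgeR adjusted p = 0.0707, with the block 0.00267). KIF18B, a kinesin-8 of astral microtubule ends and a partner of KIF2C, was at 27.1, 22.8 and 21.04 CPM in RucTotal cells, against 35.2, 26.7 and 29.1 CPM in Vehicle cells. It was the member whose groups overlapped, with an estimate of -0.36 ± 0.161 (edgeR adjusted p = 0.175, with the block 0.0420). In all, 9 of 10 members had RucTotal replicates entirely below Vehicle replicates, as had 11.2% of all genes.

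**Figure D1:**
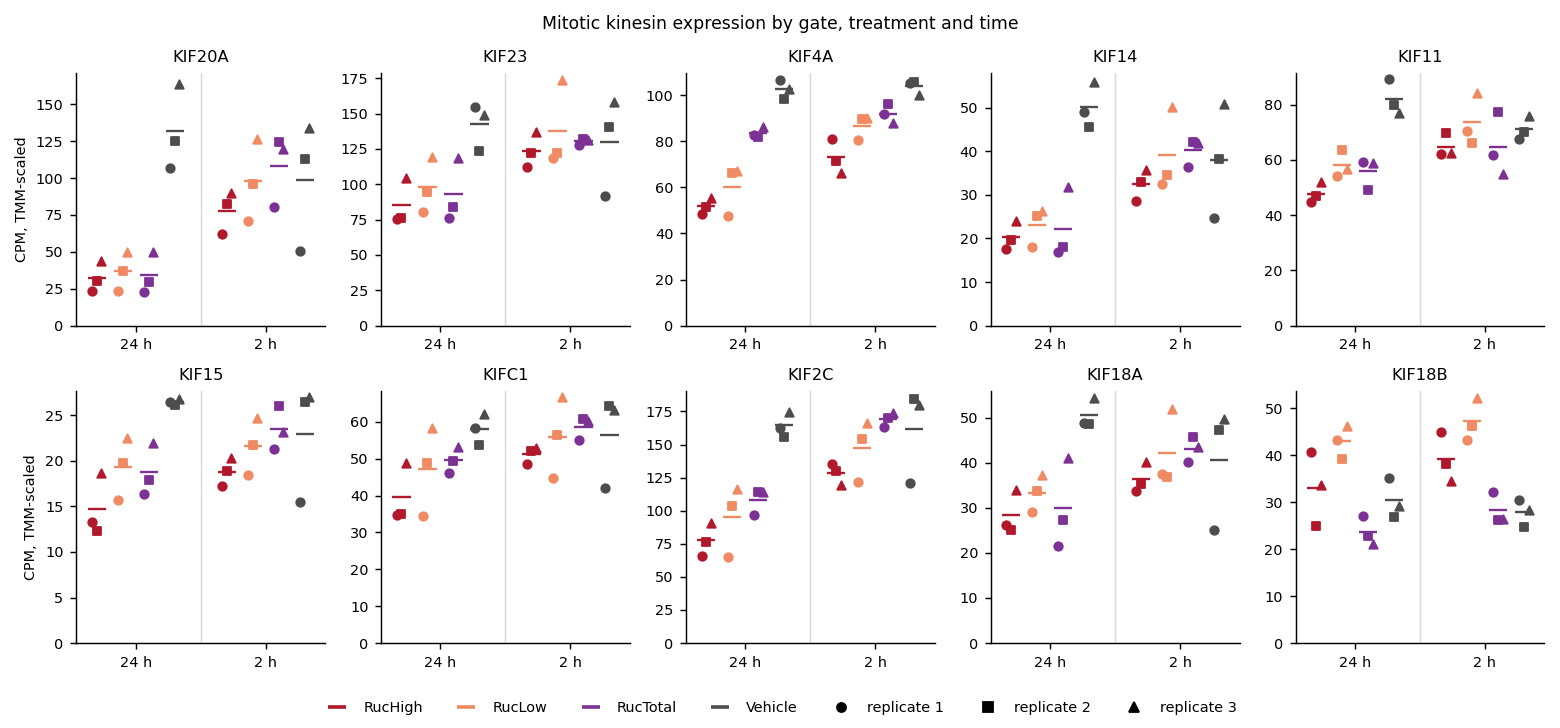
Level of each of the 10 mitotic kinesins in CPM (vertical axes) by time and group (horizontal axes, colours), with a shape for each replicate and a bar for the group mean. In unsorted cells at 24 h, KIF20A lies at 22.7 to 50.2 CPM in RucTotal and 106.5 to 163.9 CPM in Vehicle.

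The calls depended on the replicates kept. Without replicate 2 none of the members was called at 24 h, without replicate 1 KIF20A and KIF2C were, and without replicate 3 there were 5. Within groups, the level of a member in the 72 libraries went with the mean transcript length of the library for KIF14 (r = 0.82), KIF23 (0.78), KIF11 (0.71), KIF15 (0.68), KIF20A (0.68) and KIF18A (0.65), less so for KIFC1 (0.32), KIF4A (0.14) and KIF18B (0.14), and not for KIF2C (-0.12), as a description over libraries that share replicates. With a transcript length offset KIF20A alone was called lower at 24 h, and with both the replicate block and transcript length in the fit KIF20A, KIF14 and KIF2C were.

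**Figure D2:**
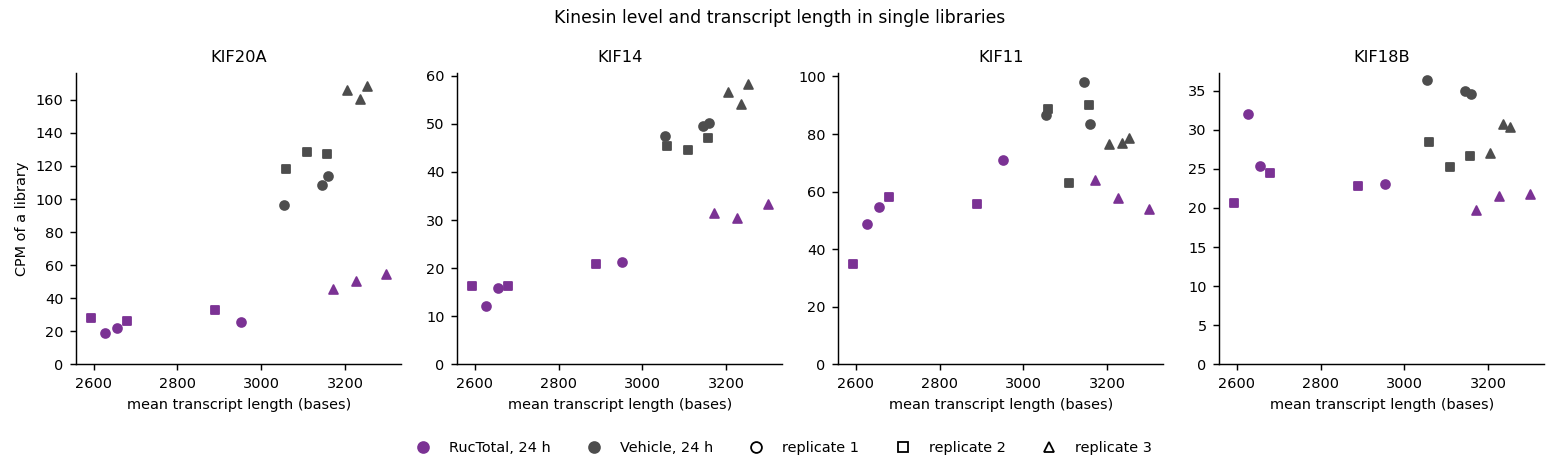
CPM of KIF20A, KIF14, KIF11 and KIF18B (vertical axes) in single libraries of unsorted cells at 24 h, RucTotal in purple and Vehicle in grey, against the mean length in bases of the transcripts that reads were assigned to (horizontal axes), with a shape for each replicate. In replicate 3 the lengths of both groups are alike (3229 and 3231 bases) and each of the 4 genes lies lower in RucTotal.

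Transcripts were compared by their share of the summed TPM of a gene, as a description with no test. In KIF20A, ENST00000394894, of 3095 bases, held 37.1 ± 16.04% of that sum in RucTotal cells (range 21.04 to 53.1%) and 73.1 ± 12.4% in Vehicle cells (59.9 to 84.4%) at 24 h (SD, n = 3), without overlap. Its share was 63.2 ± 7.83% in RucLow and 46.7 ± 20.4% in RucHigh cells at 24 h, and both ranges overlapped that of Vehicle. Vehicle cells at 2 h had 52.1 ± 18.9%, with a range that overlapped that of RucTotal at 24 h. In KIF23 the leading transcript, ENST00000352331, held 39.02 ± 11.3% (26.3 to 48.03%) in RucTotal cells and 51.1 ± 1.36% (50.1 to 52.7%) in Vehicle cells, also without overlap. The ranges of RucTotal and Vehicle at 24 h overlapped for the leading transcripts of KIF15, with means of 48.8% in RucTotal and 57.3% in Vehicle cells, and of KIF18B, with 44.4% in RucTotal and 53.4% in Vehicle cells. They overlapped as well for KIF2C, KIF4A, KIF14, KIF18A and KIFC1, and a single transcript was listed for KIF11. KIF20A shares its locus (chr5:138178719-138187715, GRCh38) with BRD8 and CDC23 on the opposite strand, and the level of each of its 7 listed transcripts is an estimate. KIF15 overlaps TMEM42 on the same strand, and its leading transcript is annotated on an alternate copy of its locus, as are some transcripts of KIFC1.

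After 2 h no member was called between RucTotal and Vehicle cells, by edgeR, by edgeR with the replicate block or by DESeq2, and none had an unadjusted p under 0.05. The estimates ran from -0.17 for KIF4A to 0.13 for KIF20A, with a median of 0.043, and 0.0248% of all genes were called. KIF20A was at 80.4, 124.5 and 119.9 CPM in RucTotal cells and 50.3, 112.6 and 133.7 CPM in Vehicle cells, and the 95% interval of its difference, -0.62 to 0.88, was wide. Replicate 1 of Vehicle at 2 h was the lowest of its group for 8 of the 10 members, all but KIF4A and KIF18B, and held a library with over 25000 detected genes. KIF4A was the member with all RucTotal values, 91.9, 96.0 and 87.9 CPM, below all Vehicle values, 105.2, 105.9 and 100.2 CPM, as had 4.66% of all genes (edgeR adjusted p = 0.883).

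The change of the drug effect between the times was tested directly. By edgeR no member passed this test, and 0.139% of all genes were called. An unadjusted edgeR p under 0.05 was held by 6 members and by 4220 of all 20131 genes. DESeq2 called 2 members and 4.36% of all genes. KIF20A came nearest, with a difference of -2.08 on the log2 scale (95% interval -3.15 to -1.004, edgeR adjusted p = 0.0891). With the replicate block 6 were called lower, beside 8.98% of all genes. These were KIF20A at -2.21 (adjusted p = 0.000159, edgeR with block), KIF14 at -1.36 (0.00237), KIF18A at -0.92 (0.0146), KIF2C at -0.69 (0.0261), KIF23 at -0.68 (0.0266) and KIF15 at -0.57 (0.0467). The replicates were uneven in this. In replicates 1, 2 and 3 the member medians of RucTotal over Vehicle were 0.44, -0.034 and -0.19 at 2 h. At 24 h they were -0.71, -0.54 and -0.39. In replicate 3, KIF23 differed by -0.27 at 2 h and -0.32 at 24 h, and KIF15 by -0.21 and -0.28, whereas KIF20A differed by -0.16 and -1.70.

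**Figure D3:**
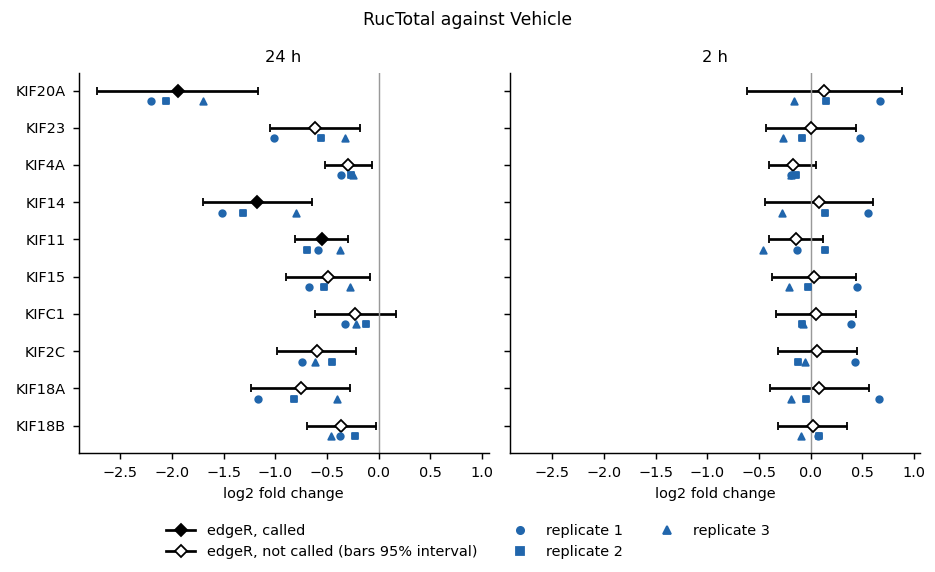
Log2 fold change of each mitotic kinesin, RucTotal over Vehicle, at 24 h and at 2 h, with 95% intervals from edgeR (diamonds, filled where called) and a blue point for each replicate. At 24 h KIF20A is at -1.95, KIF14 at -1.18 and KIF11 at -0.55, and at 2 h the estimates lie between -0.17 and 0.13.

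Some other genes of mitosis were called lower at 24 h, beside 1.15% of all genes, or 10.8% with the block. Of 4 other mitotic kinesins tested, CENPE, the kinetochore motor that brings chromosomes to the spindle equator, fell by 0.96 on the log2 scale (edgeR adjusted p = 0.0313), and KIF20B, a kinesin of cytokinesis, fell by 0.60 (0.0324), and the median of the list was -0.52. Of 11 central spindle and cytokinesis genes 2 fell, the mitotic kinase PLK1 by 1.10 (edgeR adjusted p = 0.0173) and the RhoA activator ECT2 by 0.69 (0.0275), with a median of -0.66 and 9 lower with the block. Of 9 spindle assembly genes 3 fell, ASPM by 1.40 (edgeR adjusted p = 0.0131), DLGAP5 by 1.25 (0.0172) and NUMA1 by 0.43 (0.0390), with a median of -0.84 and 8 lower with the block.

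The lists outside mitosis had medians nearer 0. Of 27 interphase kinesins, which carry vesicles, organelles and cilia components, 25 were tested and none was called by edgeR (6 at an unadjusted p under 0.05, 2 by DESeq2), with a median of -0.0066 and 2 higher and 2 lower with the block. KIF5A, a neuronal kinesin, had the largest estimate there, -2.74 (edgeR adjusted p = 0.241), at levels of at most 0.0434 CPM in these cells. Of 13 tubulin and dynein genes, TUBB2A, a beta tubulin, rose by 0.58 (edgeR adjusted p = 0.0105), and the median was 0.12, with 3 higher and 0 lower with the block. Of 15 S phase genes none was called by edgeR (4 at an unadjusted p under 0.05, 3 by DESeq2), with a median of 0.11 and 2 higher and 2 lower with the block. CCNE2, cyclin E2, had the largest estimate there at -0.63 (edgeR adjusted p = 0.0679, with the block 0.00507). Among 14 genes of the MuvB, FOXM1 and p53 pathway, CDKN1A, which encodes p21, was at 32.5, 42.6 and 32.8 CPM in RucTotal cells, against 7.67, 9.67 and 8.63 CPM in Vehicle cells, and rose by 2.05 on the log2 scale (edgeR adjusted p = 2.15e-05). LIN37, a MuvB subunit, rose by 0.82 (edgeR adjusted p = 0.0155), and the median of that list was -0.14, with 4 higher and 2 lower with the block. No epithelial marker was called by edgeR without the block (3 at an unadjusted p under 0.05, 0 by DESeq2), and 2 were higher and 1 lower with it. KRT8 had the largest estimate there at -1.16 (edgeR adjusted p = 0.214), and with the block it was called lower, at -1.38 (adjusted p = 0.00186, edgeR with block). Over all genes, 13.2% were called higher and 10.8% lower with the block, and 10.3% by DESeq2. An unadjusted edgeR p under 0.05 was held by 4935 of all 20131 genes.

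**Figure D4:**
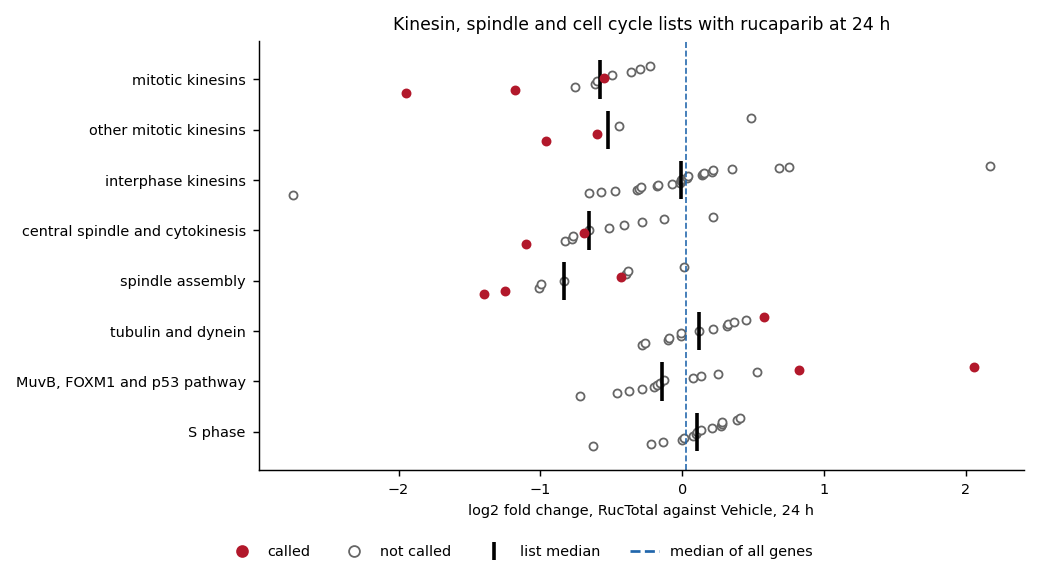
Log2 fold change, RucTotal over Vehicle at 24 h, for each gene of each list (points, red where called) with the list median as a bar and the median of all genes as a dashed line. The medians are -0.58 for the 10 mitotic kinesins, -0.52 for other mitotic kinesins, -0.84 for spindle assembly and -0.0066 for interphase kinesins.

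The second question was whether cells with more drug differed from cells with less. Between RucHigh and RucLow no mitotic kinesin was called at 24 h (0.109% of all genes were) or at 2 h (0.00497%), by edgeR with or without the block or by DESeq2. An unadjusted edgeR p under 0.05 was held by 2 members at 24 h and 1 at 2 h, and by 823 and 647 of all 20131 genes. All 10 estimates were below 0 at both times, from -0.39 to -0.18 at 24 h with a median of -0.24 (-0.0068 over all genes), and from -0.33 to -0.13 at 2 h with a median of -0.21 (-0.0019 over all genes). The same libraries enter all 10 estimates at a time, so that these signs are not independent. KIF20A was at 23.2, 30.1 and 43.9 CPM in RucHigh cells and 23.4, 37.2 and 49.9 CPM in RucLow cells at 24 h, and the 95% interval of its difference was -0.94 to 0.57. KIF11 was the member whose gates did not overlap at 24 h, with RucHigh below RucLow as in 3.53% of all genes, at 44.7, 46.9 and 51.8 CPM in RucHigh cells and 54.1, 63.6 and 56.7 CPM in RucLow cells, with a difference of -0.28 (95% interval -0.54 to -0.02, edgeR adjusted p = 1.00). The difference between the gates did not pass a test of its change between the times for any member (0% of all genes called, 0 members at an unadjusted p under 0.05, 0 by DESeq2), with estimates of -0.19 to 0.14.

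Sorted cells were also set against unsorted treated cells, a comparison in which gate and handling change together and cannot be told apart. The share of mitochondrial reads moved with it, at 1.439 to 3.93% in sorted replicates and 0.239 to 0.413% in RucTotal replicates at 24 h, and 1.59 to 3.10% in sorted and 0.692 to 0.950% in RucTotal replicates at 2 h, and its part in the result was not tested. KIF18B and KIF4A differed, in opposite directions. KIF18B was at 40.6, 24.8 and 33.8 CPM in RucHigh cells and 43.3, 39.3 and 46.3 CPM in RucLow cells at 24 h, against 27.1, 22.8 and 21.04 CPM in RucTotal cells. The mean of both gates exceeded RucTotal in each replicate, and KIF18B was higher by 0.67 on the log2 scale (edgeR adjusted p = 0.00891), as were 4.32% of all genes. At 2 h it was at 44.98, 38.2 and 34.5 CPM in RucHigh and 43.1, 46.3 and 52.2 CPM in RucLow cells, against 32.2, 26.2 and 26.4 CPM in RucTotal cells, a difference of 0.61 (edgeR adjusted p = 0.0313, with 1.24% of all genes called higher), and every sorted value lay above every unsorted one. With both gates averaged in each replicate, sorted cells lay above RucTotal without overlap in 11.1% of all genes at 24 h and 11.7% at 2 h.

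KIF4A was at 48.2, 51.5 and 55.5 CPM in RucHigh and 47.5, 66.2 and 67.1 CPM in RucLow cells at 24 h, against 82.6, 81.6 and 86.3 CPM in RucTotal cells. No sorted value reached the unsorted ones (with both gates averaged, 9.19% of all genes lay lower without overlap), and KIF4A was lower by 0.58 (log2 fold change -0.58, edgeR adjusted p = 0.00118), as were 5.14% of all genes, whereas at 2 h the estimate was -0.21 (edgeR adjusted p = 0.238). With the replicate block KIF2C was lower too at 24 h, at -0.35 (edgeR with block, adjusted p = 0.0399, with 13.9% of all genes called lower). Without replicate 2 none of the calls at 24 h was made by edgeR without the block, without replicate 3 KIF18B was not called, and at 2 h the KIF18B call was lost without replicate 2 and without replicate 3. Of the lists, 6 of 15 S phase genes and 6 of 13 tubulin and dynein genes were called lower in sorted cells at 24 h.

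**Figure D5:**
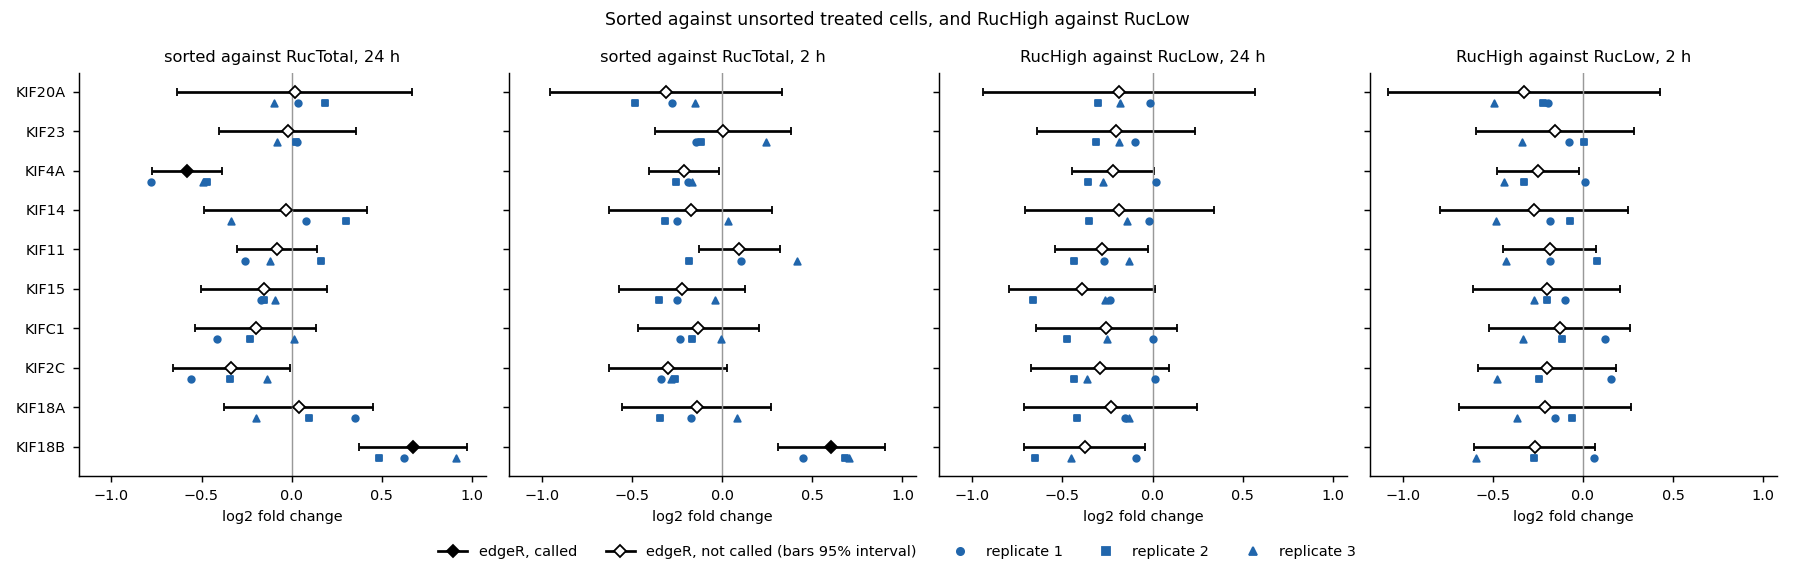
Log2 fold change of each mitotic kinesin, sorted cells (mean of both gates) over RucTotal and RucHigh over RucLow, at 24 h and at 2 h, with diamonds and 95% intervals from edgeR (filled where called) and a blue point for each replicate. KIF18B is higher in sorted cells at 24 h (0.67) and 2 h (0.61), KIF4A is lower at 24 h (-0.58), and all 10 estimates of RucHigh over RucLow lie below 0 with none called.

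Each group was also compared between its times. In Vehicle cells no member was called at 24 h against 2 h, by edgeR with or without the block or by DESeq2. Without the block none had an unadjusted edgeR p under 0.05, with a median of 0.17 and 0.0248% of all genes called. The block called 9.42% of all genes. In that fit KIF20A was at 0.49 (edgeR with block, adjusted p = 0.0501), KIF14 at 0.45 (0.0585) and KIF4A at -0.017 (0.933). KIF20A, KIF14 and KIF18A had an unadjusted p under 0.05 in it. In RucTotal cells KIF20A fell by 1.66 on the log2 scale (edgeR adjusted p = 0.0250), beside 0.745% of genes called lower, and with the block KIF14, KIF2C, KIF23 and KIF18A were also called lower (6.41% of genes). The KIF20A values were 22.7, 29.6 and 50.2 CPM at 24 h, against 80.4, 124.5 and 119.9 CPM at 2 h, a lack of overlap seen in 10.6% of all genes. The KIF20A call was lost without replicate 2, without replicate 3, with the compared groups alone and on the log2(TPM + 1) scale.

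Among RucLow cells the member called over time was KIF4A. RucLow cells had 47.5, 66.2 and 67.1 CPM of KIF4A at 24 h, against 80.3, 89.6 and 90.1 CPM at 2 h, without overlap, as had 5.99% of all genes. The difference was -0.52 (edgeR adjusted p = 0.0434, with 0.119% of genes called lower), and the call was lost whichever replicate was left out. With the block, KIF20A, KIF2C and KIF14 were lower as well (1.06% of genes). In RucHigh cells none was called by edgeR (0.224% of genes were), and 4 were by DESeq2 (1.67% of genes). An unadjusted edgeR p under 0.05 was held by 6 members and by 1839 of all 20131 genes. With the block 5 were lower, KIF20A, KIF2C, KIF4A, KIF14 and KIF23 (1.26% of genes). KIF20A had estimates of -1.26 in RucHigh cells (edgeR adjusted p = 0.188) and -1.41 in RucLow cells (0.138). KIF20A in RucHigh cells was at 23.2, 30.1 and 43.9 CPM at 24 h, against 61.8, 82.1 and 89.7 CPM at 2 h, without overlap, as had 7.11% of all genes. These comparisons share groups with those above, and the changes of the gates were not tested against that of Vehicle.

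Over the 24 replicate sums of all groups, the members varied together with 1 exception. The log2 CPM of a member correlated with the mean of the other 9 at r of 0.73 for KIF4A to 0.96 for KIF14, and KIF20A and KIF14 were the closest pair (r = 0.98). KIF18B did not follow, at r = -0.06, and its pairs ranged from -0.31 to 0.11. With the group means taken out, KIF11 and KIF4A followed the other members less closely, at r = 0.44 and 0.47. The rest ranged from 0.84 for KIF2C to 0.95 for KIF15, and KIF18B was at -0.19. Among 10950 other genes of at least 5 CPM on average, those most like the mean of the members were CDCA2 (r = 0.98), FAM83D (0.98), DLGAP5 (0.98), PRC1 (0.98) and DEPDC1 (0.98). The points share groups and libraries, so that these coefficients are descriptions and carry no test.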

How the data were processed

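Poly(A) RNA of PEO1 cells was sequenced in 72 libraries, 3 of each of 3 replicates of 8 groups. The authors trimmed reads with cutadapt 4.7 and quantified transcripts with Salmon against GRCh38 (per the submitters' processing notes, which also name DESeq2 1.44.0). The Salmon version and the annotation release are not given in the sources used here. The deposited tables hold the estimated counts per transcript used here, and the TPM values, which the authors' software scaled by transcript length and library depth, with transcript lengths beside them.

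Estimated counts were summed by gene over GENCODE 29 transcript identifiers, with a symbol table for 11562 further transcripts. Of 257369 transcripts 51370 matched neither, and held 7.11 to 8.96% of reads per library. The 3 libraries of a replicate were summed as technical repeats and rounded. Samples were grouped by GEO's labels. Genes were filtered with filterByExpr, scaled by TMM and tested with glmQLFit and glmQLFTest in edgeR 4.0.16 (R 4.3.3) in 1 fit of 24 sums, adjusted after Benjamini-Hochberg over 20131 genes, and called at an adjusted p under 0.05. limma 3.58.1 served for log2(TPM + 1), with DESeq2 1.42.0 as an alternative count test. The code was tested on simulated data. CPM are counts scaled to the TMM library sizes.

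The study's summary of its imaging and cytometry states replicates from different days and repeats from separate wells, and it was taken to hold for these libraries. Where it does not, p-values measure only the spread between samples. Same-numbered sums deviated together (median r = 0.287 over 84 pairs, 74 over 0.1, lowest -0.064), and the replicate block was an alternative fit. For other numbers the median r was -0.122. Deviations were taken from means of 3 replicates, so that this value is tied to the first and is no separate contrast.

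The members and lists were chosen with earlier results of these data known. The genes named are all members, from each list up to 3 genes per direction with the smallest p among those called at 24 h (where none was, the one with the largest change), and the 5 genes most correlated with the members. Other alternatives were no filter on low counts, a transcript length offset, the compared groups alone, and leaving out replicates, libraries under 2800 bases or libraries over 25000 genes.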

Additional observations from a re-analysis of the deposited data

Results flagged for a closer look

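The 9 libraries of a group were compared for each member, and in 6 of 80 such sets the highest or lowest library stood apart from the rest. For independent values the limit used would flag about 1 in 20 sets by chance. Here libraries share replicates and members share libraries, so that this rate need not hold. KIF11 was at 12.9 CPM in library 2 of replicate 2 of RucLow at 2 h, against 62.2 to 98.2 CPM in the other libraries of that group, and this library is 1 of the 2 with over 25000 detected genes. KIF18B was high in 3 libraries, at 60.9 CPM in library 1 of replicate 3 of RucLow at 2 h (others 39.5 to 49.3), 31.99 CPM in library 1 of replicate 1 of RucTotal at 24 h (others 19.7 to 25.4) and 56.4 CPM in library 1 of replicate 3 of RucLow at 24 h (others 34.5 to 44.6). KIFC1 was low in 2 libraries, at 48.9 CPM in library 1 of replicate 1 of RucTotal at 2 h (others 55.2 to 61.3) and 48.4 CPM in library 3 of replicate 2 of Vehicle at 24 h (others 55.8 to 63.4).

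The effect of rucaparib differed between 24 h and 2 h for 6 members in edgeR with the replicate block, by -2.21 on the log2 scale for KIF20A (adjusted p = 0.000159), -1.36 for KIF14 (0.00237), -0.92 for KIF18A (0.0146), -0.69 for KIF2C (0.0261), -0.68 for KIF23 (0.0266) and -0.57 for KIF15 (0.0467), and for none of them in edgeR without the block. With the block 8.98% of all genes were called lower and 18% in either direction, against 0.139% in either direction without it. In replicates 1, 2 and 3 the member medians of RucTotal over Vehicle were 0.44, -0.034 and -0.19 at 2 h. At 24 h they were -0.71, -0.54 and -0.39.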

How the results depend on the processing

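The number of the 10 members called moved with the replicates and the model, while no called change turned its direction. Of 1560 fold changes over 13 alternatives and 12 comparisons, 1488 had the sign of the values in the report, and none of the 72 others was called. At 24 h the change between RucTotal and Vehicle ranged from -2.16 to -1.84 for KIF20A, -1.46 to -1.0 for KIF14 and -0.66 to -0.38 for KIF11. In that comparison the 3 members called became 7 with DESeq2, 9 with the replicate block, 1 with a transcript length offset, 1 with log2(TPM + 1) and 0 with the compared groups alone, and 0 to 5 when a replicate was left out. For the change of the drug effect between times, 0 became 2 with DESeq2, 1 with no filter on low counts, 6 with the replicate block, 3 with the block and transcript length, 2 without libraries under 2800 bases, and 0 to 5 without a replicate. For sorted against unsorted cells at 2 h, 1 became 0 with the length offset and 0 with TPM, and 0 to 1 without a replicate, and at 24 h, 2 became 1 with TPM and 0 with the compared groups alone, and 0 to 2 without a replicate. For RucTotal at 24 h against 2 h, 1 became 3 with DESeq2, 5 with the replicate block, 5 with the block and transcript length, 0 with TPM, 0 with the compared groups alone, 2 without short libraries, and 0 to 2 without a replicate. For RucLow at 24 h against 2 h, 1 became 3 with DESeq2, 4 with the block, 6 with the block and length, and 0 with the length offset, with TPM, with the compared groups alone, without short libraries and without any replicate. For RucHigh at 24 h against 2 h, 0 became 4 with DESeq2, 5 with the block, 6 with the block and length, and 1 without libraries over 25000 genes. Fewer samples enter the fits of the compared groups alone and those without a replicate, and the cause of the other moves was not tested. The block changed no call between RucHigh and RucLow, in Vehicle over time, or at 2 h between RucTotal and Vehicle. The share of all genes called in either direction moved as well. Between RucTotal and Vehicle at 24 h it was 3.35% by edgeR, 10.3% by DESeq2 and 24% with the block. In that order it was 0.139%, 4.36% and 18% for the change of the drug effect. Over time and in the same order, it was 1.92%, 6.11% and 12.3% in RucTotal and 0.278%, 1.53% and 2.49% in RucLow. In RucHigh it was 0.224%, 1.67% and 2.81%. Shares for the other alternatives are not given here.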
